A study of Mus musculus with 45 samples.

Results

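Withdrawal of cysteine and its oxidised dimer cystine from the mouse mammary tumour cell line Myc310 is described here across all genes. The members are 6 cultures, 3 kept in cystine-free medium and 3 in control medium, of 45 cultures in the study, and they were chosen by their labels. Of 28454 listed genes, 20689 had a count in at least 1 of these cultures and 13400 passed a filter on low counts and were tested. Myc310 is a single line, without a replicate line of its kind, grown from a tumour of an MMTV-cMYC mouse that had multiple tumours; in such mice the MMTV promoter, which is active in mammary epithelium, drives the cMYC oncogene. Cells were seeded at 250000 per well in serum-containing DMEM:F12 with glutamine, insulin, hydrocortisone and EGF, and after 24 h the medium was exchanged for control medium or medium free of cysteine and cystine for 6 h. The comparison lines were MYAZ16.1e, from another MMTV-cMYC mammary tumour, LM1, isolated from lungs after Myc310 cells had been injected into the mammary fat pad, and LM1-LM, isolated in the same way after injection of LM1, each with 3 control and 3 deprived cultures. The 3 cultures of a line are described as technical replicates, so the errors and p-values measure the spread between cultures of one line and not between tumours.

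Cystine enters cells through the antiporter xCT, made of Slc7a11 and Slc3a2, in exchange for glutamate, and is reduced to cysteine for protein, glutathione, coenzyme A and iron-sulphur clusters. Cells that lack an amino acid accumulate uncharged transfer RNA, which activates the kinase GCN2 (Eif2ak4). Phosphorylation of the initiation factor eIF2alpha then lowers general translation and raises translation of the transcription factor ATF4, the core of the integrated stress response, whose targets include amino acid transporters, biosynthetic enzymes and aminoacyl-tRNA synthetases. Loss of cysteine also limits glutathione, the substrate of the peroxidase GPX4 that removes lipid peroxides, and oxidants release the transcription factor NRF2 (Nfe2l2) from KEAP1.

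Reads counted on genes ranged from 21072792 to 25032513 in the control cultures and from 21825572 to 23101535 in the deprived cultures, and no library stood apart from the others of its group. Values below are normalised read counts (CPM, counts scaled to the library size with TMM factors), given for cultures 1, 2 and 3 or as mean ± SD (n = 3), and log2 fold changes (deprived over control) are the fitted values of edgeR's quasi-likelihood model ± SE. CPM values do not take account of transcript length, so they compare one gene between cultures and not genes with each other. The label of a mammary tumour line was checked against 16 markers of mammary epithelium, of which 12 had at most 3 counts in every Myc310 library, among them Epcam, Cdh1, Krt5, Krt14 and Trp63. Simple-epithelial keratins were present, with Krt8 at 972 ± 9.38 CPM and Krt18 at 350.3 ± 3.84 CPM in control medium. The summed level of the epithelial markers ranged from 1373 to 1384 CPM in control and from 1571 to 1617 CPM in deprived cultures. Markers of fibroblasts summed to 12.6 to 13.5 and 12.3 to 13.0 CPM with 8 of 10 at the floor, those of leukocytes to 9.52 to 10.4 and 11.6 to 13.4 CPM with 6 of 8 at the floor, Ptprc among them at 0, and those of endothelium to 22.3 to 23.7 and 22.8 to 24.2 CPM, nearly all of it Flt1. In bulk cultures a change in the share of a kind of cell and a change in RNA per cell cannot be told apart.

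Deprivation for 6 h changed most measured genes of Myc310 by small amounts and a smaller number by large amounts. At an adjusted p under 0.05 (edgeR, Benjamini-Hochberg over 13400 genes), 8946 genes differed between the media, 66.8% of those tested, with 4401 higher (32.8%) and 4545 lower (33.9%). The 5% and 95% quantiles of the fitted changes lay at -1.14 and 1.33 on the log2 scale, and the median over all genes was -0.01. Changes of more than 2-fold past the threshold numbered 1657 (12.4%), of which 928 were higher (6.93%) and 729 lower (5.44%). In 9299 genes (69.4%) the 3 deprived cultures did not overlap the 3 control cultures. Of the 928 rises over 2-fold, 338 were among the 2165 genes at or under 0 on the log2 CPM scale in control medium and 15 among the 726 genes above 8. At such shares a call by itself says little about a gene, so the size of each change and the share of a list called in one direction are given beside these background values.

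**Figure D1:**
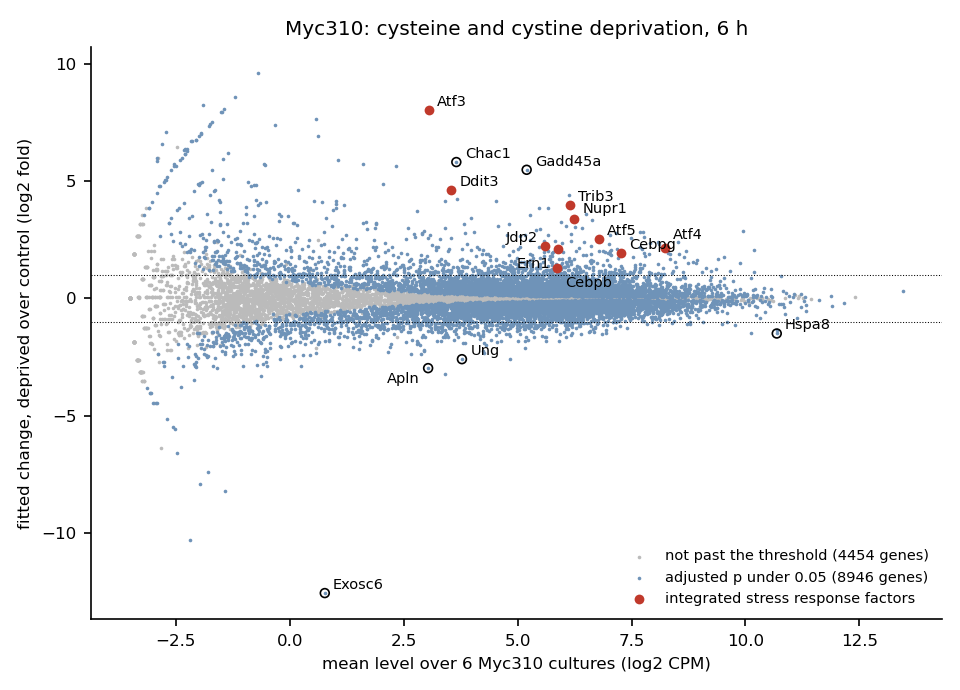
Fitted log2 change in Myc310 (deprived over control) against the mean level over 6 cultures (log2 CPM) for 13400 genes. Blue points passed the threshold, grey points did not, red points are the 10 integrated stress response factors, open circles are other named genes and dotted lines mark 2-fold; the streaks of points at the far left are genes at or near 0 counts in one medium, whose fitted values are no measure of size.

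The factors of the integrated stress response, here transcription factors with the pseudokinase Trib3 and the sensor Ern1, all rose. All 10 tested were higher, each by more than 2-fold, with a median log2 change of 2.37 against -0.01 over all genes. Atf4 itself (chr15:80255184-80257541) measured 148, 135 and 143 CPM in control medium and 630.4, 627 and 643 CPM without cystine. Positions are those of whole genes in build GRCm38. The groups were far apart, and the rise of Atf4 was 4.46-fold (log2 2.16 ± 0.028, edgeR's adjusted p = 6.1e-32). Atf3 (chr1:191170296-191218039), a stress-induced bZIP repressor that is nearly silent in unstressed cells, stood at 0.507, 0.393 and 0.510 CPM in control and 125, 126 and 121 CPM in deprived cultures. Its change of 8.02 ± 0.23 (log2), 259.9-fold, was the largest among genes with a mean level of at least 3 on the log2 CPM scale. Ddit3, which encodes the pro-apoptotic factor CHOP, went from 2.03, 2.54 and 2.41 CPM to 56.6, 59.6 and 53.5 CPM, a 24.4-fold rise (log2 4.61 ± 0.11). The annotation carries a further entry under the same symbol on the same strand, and Mars and Gm4189 overlap it on the opposite strand, so some reads of this locus could belong elsewhere. Trib3 (chr2:152337422-152344032), a pseudokinase that binds ATF4 and CHOP, had 18.5, 16.6 and 18.3 CPM in control and 283, 270 and 288 CPM in deprived cultures (15.7-fold, log2 3.98 ± 0.054).

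Nupr1, a small stress-induced chromatin protein, rose from 23.4 ± 0.381 to 244 ± 7.56 CPM (log2 3.38 ± 0.046). Atf5, a paralogue of ATF4 that serves the mitochondrial stress response, rose by 2.52 ± 0.032, and Jdp2, a bZIP repressor of AP-1 sites, by 2.22 ± 0.040. The C/EBP partners of ATF4 also rose, Cebpg by 1.94 ± 0.032 and Cebpb by 1.28 ± 0.078. Ern1, which encodes the unfolded protein sensor IRE1, rose by 2.10 ± 0.048. The 4 eIF2alpha kinases did not share this direction: Eif2ak4 (GCN2) fell by 0.53 on the log2 scale, Eif2ak1 (HRI) by 0.65 and Eif2ak2 (PKR) by 0.34, while Eif2ak3 (PERK) was not past the threshold at -0.084 ± 0.061. Of 3 genes of the phosphatase arm that reverses the pathway 2 rose and 1 fell. Ppp1r15a (GADD34) measured 18.4, 17.4 and 19.3 CPM in control and 286, 282 and 283 CPM in deprived cultures (15.4-fold). Its constitutive counterpart Ppp1r15b, which keeps basal phosphatase activity, rose by 0.50 ± 0.029. Ppp1ca, listed with them, changed by -0.087 ± 0.027, past the threshold and downward.

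**Figure D2:**
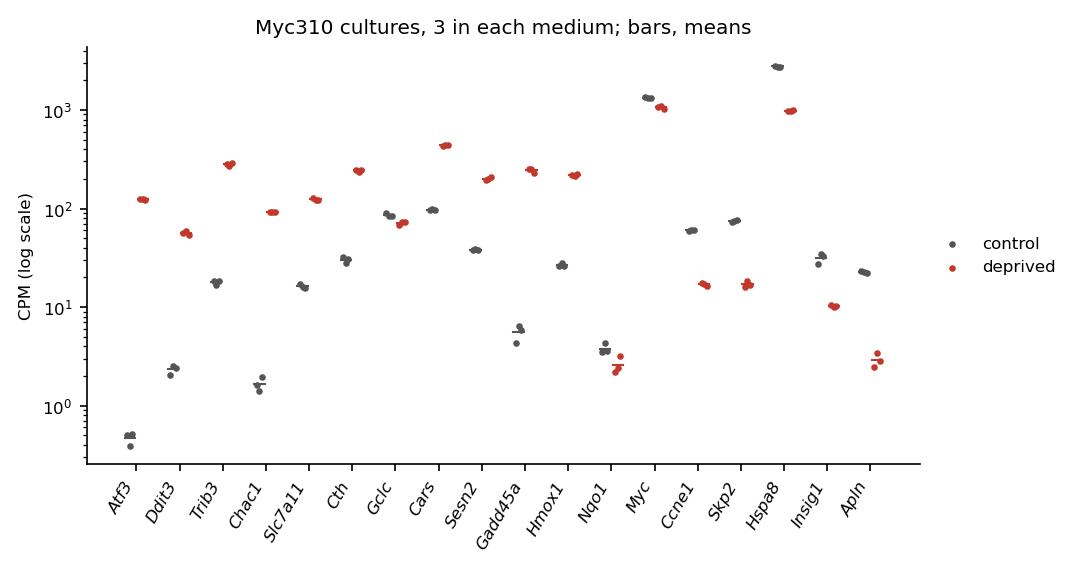
Level of 18 genes in every Myc310 culture (CPM, log scale), 3 control cultures in grey and 3 deprived cultures in red, with bars at the means. Within each gene the 3 cultures of a medium lie close together; the media are separated for every gene shown, by the widest gap for Atf3 and by narrow gaps for Gclc and Nqo1.

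ATF4 and its C/EBP partners bind composite sites known as C/EBP-ATF response elements (CARE), with the core TGATGNAA. This core was searched on both strands in the 250 bases before the RefSeq start of each protein-coding gene tested. A window was at hand for 9458 of 11822 such genes, and 180 of these windows (1.9%) held the core. Windows covered only 76.8% of the coding genes over 2-fold higher and 75.2% of those over 2-fold lower, too few for a comparison of shares between groups, which is void here. The 12 largest rises and 12 largest falls are defined with their values further on. Among them the core was found in 3 of 11 rises and 1 of 12 falls with a window, too few to compare. Those 4 windows were chosen because they hold the core, so they do not show how often genes with large changes carry it. They are printed on the strand of the gene and 5′ to 3′, without bases that lie in annotated exons. Capitals mark the 8 bases that read as the core on the opposite strand. In Atf3 (chr1:191183341-191183583, minus strand, upstream of the start of the shorter RefSeq transcript and inside the first intron of a longer one) they begin at position -110 relative to the start, in Chac1 (chr2:119350992-119351228, plus strand) at -193, in Arid5a (chr1:36307483-36307732, plus strand) at -164 and in Ung (chr5:114130185-114130385, plus strand), which fell, at -186. Sequences and starts are from RefSeq, build GRCm38.p6, and a match is a description of letters, not of binding.
Atf3: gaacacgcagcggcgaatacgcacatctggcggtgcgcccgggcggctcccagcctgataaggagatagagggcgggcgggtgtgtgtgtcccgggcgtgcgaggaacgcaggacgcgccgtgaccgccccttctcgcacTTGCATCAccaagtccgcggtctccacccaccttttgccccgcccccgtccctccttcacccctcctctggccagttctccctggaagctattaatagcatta
Chac1: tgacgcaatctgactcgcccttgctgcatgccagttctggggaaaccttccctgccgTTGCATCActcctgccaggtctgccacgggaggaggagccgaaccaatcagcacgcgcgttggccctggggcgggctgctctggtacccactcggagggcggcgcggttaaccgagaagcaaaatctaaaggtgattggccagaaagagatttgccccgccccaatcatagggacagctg
Arid5a: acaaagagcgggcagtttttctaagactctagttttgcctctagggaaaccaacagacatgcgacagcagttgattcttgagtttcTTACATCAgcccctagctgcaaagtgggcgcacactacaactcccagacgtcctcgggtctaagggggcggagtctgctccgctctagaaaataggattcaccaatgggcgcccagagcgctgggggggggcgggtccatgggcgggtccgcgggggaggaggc
Ung: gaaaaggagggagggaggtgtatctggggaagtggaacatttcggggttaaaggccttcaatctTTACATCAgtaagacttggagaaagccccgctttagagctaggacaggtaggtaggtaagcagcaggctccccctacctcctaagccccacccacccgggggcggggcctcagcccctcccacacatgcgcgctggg
The core in Atf3 and Chac1 reads the same 8 letters, and that in Arid5a and Ung differs from it only at the free position.

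Genes of cystine uptake rose and genes of glutathione synthesis did not. All 5 tested genes of cystine and cysteine transport were higher (median log2 change 1.78); Slc3a1 had at most 1 count. Slc7a11 (chr3:49892526-50443614), the light chain of xCT, measured 17.2, 15.9 and 15.5 CPM in control and 129, 123 and 123 CPM in deprived cultures. The deprived cultures were all far above the controls, a 7.69-fold rise (log2 2.94 ± 0.052, edgeR's adjusted p = 2.23e-29). Its heavy chain Slc3a2 rose by 1.78 ± 0.023, the neutral amino acid exchanger Slc1a4 by 2.02 ± 0.041, the lysosomal cystine exporter Ctns by 0.52 ± 0.13 and Slc1a5 by 0.22 ± 0.028. In the transsulfuration route, which makes cysteine from methionine, the last enzyme Cth (cystathionine gamma-lyase, chr3:157894248-157925077) went from 31.8, 28.0 and 30.8 CPM to 247, 237 and 248 CPM (8.07-fold). The enzyme before it, Cbs, was close to absent, at 0.234, 0.175 and 0.603 CPM in control and 0.709, 0.458 and 0.260 CPM in deprived cultures, and was not past the threshold (log2 0.51 ± 0.62). Upstream in the methionine cycle Mat2a fell by 0.79 and Ahcy by 0.62 on the log2 scale, and Mtr and Mtrr, which remethylate homocysteine, rose by 0.35 ± 0.044 and 0.47 ± 0.044.

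None of the 3 genes of glutathione synthesis rose. Gclc (chr9:77754535-77794485), the catalytic subunit of the rate-limiting ligase, measured 90.4, 83.9 and 84.0 CPM in control and 67.5, 72.2 and 72.2 CPM in deprived cultures. The deprived values lay below all controls, a 1.22-fold decrease (log2 -0.29 ± 0.038). The modifier subunit Gclm changed by -0.16 ± 0.038 (log2), past the threshold and downward, and the synthetase Gss by 0.041 ± 0.051, not past it, with overlapping cultures. Chac1 (chr2:119351229-119354381), which cleaves glutathione in the cytosol and is a target of ATF4 and ATF3, showed the reverse, with 1.60, 1.4 and 1.95 CPM in control and 91.4, 92.9 and 92.3 CPM in deprived cultures. This 56.0-fold rise (log2 5.81 ± 0.13) came second among the genes of moderate and high level. Chac2, its constitutive relative, rose by 0.73 ± 0.10, whereas Ggct, a cyclotransferase of gamma-glutamyl dipeptides, fell by 0.59. Of the peroxidases and reductases, Gsr (glutathione reductase) fell by 0.62, Glrx by 0.45 and Gpx1 by 0.20 on the log2 scale, and Gpx4 rose by 0.13 ± 0.031. Over all 17 glutathione genes tested, 3 were higher, 8 lower and 6 not past the threshold (median -0.16).

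Genes that use or degrade cysteine are given against 33.9% lower and 32.8% higher over all genes. Of 8 genes of cysteine breakdown and sulfide oxidation 4 fell, led by the thiosulfate sulfurtransferase Tst (-0.84 ± 0.087), 3 were not past the threshold, and the aspartate aminotransferase Got1 rose by 0.88 ± 0.033; Cdo1, the cysteine dioxygenase, was under the filter with at most 19 counts. Of 9 genes that build coenzyme A or iron-sulphur clusters from cysteine 6 fell and 2 rose. The largest fall was in Pank1, a pantothenate kinase that starts coenzyme A synthesis (10.2 ± 0.371 to 3.73 ± 0.375 CPM, log2 -1.45 ± 0.11). Nfs1, the cysteine desulfurase that supplies sulphur to the clusters, changed by -0.43 ± 0.040 and its scaffold Iscu by -0.35 ± 0.063, both past the threshold.

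Enzymes of other amino acid pathways changed by unequal amounts and, outside serine synthesis, in both directions. All 3 enzymes of serine synthesis rose, but unequally. Psph, the last of them, measured 23.6, 23.1 and 22.9 CPM in control and 196, 195 and 192 CPM in deprived cultures, without overlap and 8.36-fold apart. The 2 enzymes before it rose less, Phgdh from 606 ± 20.4 to 893 ± 44.8 CPM and Psat1 from 564 ± 7.02 to 826 ± 8.96 CPM. Of the 5 mitochondrial enzymes of the folate cycle tested 4 rose and Mthfd2l fell (-0.36 ± 0.078). Aldh1l2, which releases NADPH in mitochondria, rose from 15.2, 16.3 and 14.6 CPM to 324, 317 and 324 CPM (20.9-fold), Mthfd2 by 2.39 ± 0.030, Shmt2 by 1.29 ± 0.023 and Mthfd1l by 0.87 ± 0.026 on the log2 scale. Their cytosolic counterparts Shmt1 (-1.04 ± 0.044) and Mthfd1 (-0.47 ± 0.028) fell, as did Tyms (-0.35 ± 0.040), the thymidylate synthase. Over the list of 14 genes 8 were higher and 5 lower, with a median of 0.55.

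Asparagine, proline and alanine enzymes also moved in both directions. Asns, the asparagine synthetase and a classical ATF4 target, rose from 159.9 ± 3.03 to 835 ± 5.23 CPM (log2 2.39 ± 0.028). Pycr1 and Aldh18a1, which make proline, rose by 2.57 ± 0.11 and 2.35 ± 0.026, and the mitochondrial alanine aminotransferase Gpt2 rose from 25.9 ± 0.518 to 315 ± 3.69 CPM (log2 3.61 ± 0.038). Bcat1, which transfers the amino group of branched-chain amino acids, rose by 1.57 ± 0.037. Members that fell included glutamine synthetase Glul (-1.13 ± 0.044), the glutaminase Gls2 (-1.17 ± 0.093), Aspg (-1.27 ± 0.31) and the cytosolic Gpt (-0.58 ± 0.20), the last of which did not pass the threshold without the cultures numbered 2 (-0.34, edgeR's adjusted p = 0.207) or without deprived culture 2 (-0.42, adjusted p = 0.0756). In all 6 of 16 genes were higher and 10 lower (median -0.35).

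Amino acid transporters rose more often than they fell, 11 and 6 of 17 tested (median 0.54, the same with genes at 0 in one medium set to their bound). Slc6a9, the glycine transporter GlyT1, rose from 50.8 ± 2.68 to 333 ± 9.91 CPM (log2 2.71 ± 0.034). Slc7a5 (LAT1), which pairs with Slc3a2 to take up large neutral amino acids, rose by 1.49 ± 0.023, the glutamine carrier Slc38a1 by 1.31 ± 0.028 and Slc38a2 by 0.54 ± 0.023. Among the cationic amino acid carriers, Slc7a1 rose by 1.53 ± 0.025 and Slc7a3, near the floor of 3 counts per library in control medium, went from 5, 0 and 3 to 21, 37 and 38 counts, while Slc7a2 fell (3.12 ± 0.218 to 0.609 ± 0.0777 CPM, log2 -2.35 ± 0.31). Slc1a1, the neuronal-type glutamate and cysteine carrier, had no count in any control culture and 5, 3 and 8 counts in the deprived cultures, a bound of at least 1.82-fold.

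Aminoacyl-tRNA synthetases separated by compartment. Of 20 cytosolic enzymes 16 rose, 12 of them over 2-fold, 3 fell and 1 was not past the threshold (80% higher against 32.8% of all genes, median 1.32). Of 17 mitochondrial enzymes 5 rose, 11 fell and 1 was not past it (median -0.28). Cars, the enzyme that charges cysteine, had the largest rise of the cytosolic group, from 97.3, 98.5 and 96.5 CPM to 427, 446 and 442 CPM, 4.50-fold with no overlap. Aars (2.01 ± 0.026), Sars (1.92 ± 0.026), Tars (1.91 ± 0.024), Wars1 (1.79 ± 0.029) and Gars (1.78 ± 0.022) followed, and at the other end Farsa (-0.25 ± 0.035), Kars (-0.27 ± 0.022) and Qars (-0.83 ± 0.032) fell and Dars (0.023 ± 0.029) was not past the threshold. In mitochondria the cysteine enzyme Cars2 fell by 0.87 and Yars2 by 1.12 on the log2 scale. Lars2 passed the threshold downward with 1 high control culture (86.6, 243 and 98.2 CPM in control against 83.9, 90.5 and 101 CPM in deprived cultures), and its groups overlap; without that culture the change was -0.007 (edgeR's adjusted p = 0.986).

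Inhibitors of mTORC1, the kinase complex that couples amino acids to growth, moved both ways. Sesn2, a leucine sensor and ATF4 target, rose from 38.2, 38.4 and 37.7 CPM to 196, 200.3 and 208 CPM (5.28-fold), and Ddit4 (REDD1) rose from 112 ± 5.35 to 425 ± 16.5 CPM (log2 1.92 ± 0.059). Their relative Sesn1, a p53 target, fell by 1.18, the arginine sensor Castor1 by 0.98 and Depdc5 by 0.62 on the log2 scale. Of 13 tested 4 were higher, 5 lower and 4 not past the threshold (median -0.04). Eif4ebp1, which holds the cap-binding protein eIF4E when mTORC1 is off, rose by 1.47 ± 0.031, and Eif4ebp2 fell by 0.84. Of 21 initiation factors 11 were higher and 9 lower (median 0.08), with Eif1 (1.12 ± 0.025) and Eif3c (1.18 ± 0.020) over 2-fold higher, Eif2s2, the beta subunit of eIF2, at 0.87 ± 0.029, and Eif4g1 (-0.69 ± 0.019) and Eif5 (-0.53 ± 0.025) lower; the 24 genes of the whole list had a median of 0.04.

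Most listed regulators of NRF2 rose, and most listed NRF2 targets did not. Both counts depend on the lists: Slc7a11 was counted with cystine transport and Sqstm1 with the regulators, not with the targets. Of 8 regulators 7 were higher and only Keap1 was lower (-0.28 ± 0.039), with a median of 0.62. Sqstm1 (p62), which draws KEAP1 into autophagosomes, measured 364, 354 and 371 CPM in control and 2580, 2720 and 2637 CPM in deprived cultures (7.28-fold). Nfe2l2 (NRF2) rose by 0.52 ± 0.026, its partners Maff by 1.24 ± 0.064, Mafg by 0.52 ± 0.029 and Mafk by 0.35 ± 0.040, its relative Nfe2l1 by 0.96 ± 0.023 and its competitor Bach1 by 0.72 ± 0.055. Of 25 targets 6 were higher, 15 lower and 4 not past the threshold (60% lower against 33.9% of all genes, median -0.19). Of the 6 that rose, 2 exceeded 2-fold. Hmox1, the heme oxygenase, went from 25.8, 27.9 and 26.3 CPM to 217, 216 and 222 CPM (8.19-fold), and Osgin1, an oxidative stress-induced growth inhibitor, rose by 2.64 ± 0.064 on the log2 scale. Among the genes most used as readouts of NRF2, the quinone reductase Nqo1 fell from 3.47, 4.28 and 3.57 CPM to 2.22, 2.43 and 3.16 CPM (log2 -0.53 ± 0.14; without the cultures numbered 2 in all lines -0.39, edgeR's adjusted p = 0.0789). The pentose phosphate enzymes Pgd and G6pdx fell by 0.84 and 0.58, Gstm1 by 0.82, Srxn1 rose by 0.18 ± 0.044, and Txnrd1 (-0.013 ± 0.029) was not past the threshold.

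Genes of ferroptosis, the death by lipid peroxidation that follows loss of glutathione, and of iron handling divided into 8 higher and 9 lower of 18 tested (median -0.11). Ptgs2, a widely used marker of ferroptosis, rose from 11.2, 12.1 and 10.3 CPM to 141, 131 and 128 CPM (11.9-fold) and Sat1, the polyamine acetyltransferase, by 1.46 ± 0.036 on the log2 scale. Of the suppressors, Gch1, which makes tetrahydrobiopterin, rose by 1.49 ± 0.19 and Aifm2 (FSP1) by 0.36 ± 0.052, while the desaturase Scd2 fell by 0.99, Scd1 by 0.22 and Dhodh by 1.01. Acsl4, which esterifies the polyunsaturated fatty acids that peroxidise, rose by 0.21 ± 0.032. The zinc and iron importer Slc39a14 rose by 0.61 ± 0.026, the ferritinophagy receptor Ncoa4 fell by 0.45 and the ferrireductase Steap3 by 1.08.

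Stress-induced secreted factors rose in 10 of 12 tested, with 1 lower and 1 not past the threshold; the median was 2.44 as fitted and 1.75 with the 3 members at 0 in control medium set to their bound. Fgf21, a hormone of amino acid and mitochondrial stress, had no count in the control cultures and 110, 101 and 76 counts in the deprived cultures, at least 33-fold above the floor of 3 counts per library. Gdf15, which acts on the brainstem to suppress appetite, also went from no count to 8, 10 and 8 counts (at least 3-fold), and the chemokine gene Ccl20 from no count to 7, 2 and 1. Angptl4, an inhibitor of lipoprotein lipase, was also called, at 0.390, 0.131 and 0 CPM in control and 0.443, 0.321 and 1.26 CPM in deprived cultures, which overlap. Neither of the last 2 passed the threshold without the highest deprived culture: edgeR's adjusted p was 0.0817 for Ccl20 without deprived culture 1 (0.153 without the cultures numbered 1 in all lines) and 0.19 for Angptl4 without deprived culture 3 (0.493 without those numbered 3). Areg, a ligand of the EGF receptor, rose from 10.1, 12.2 and 12.6 CPM to 168, 173 and 159 CPM (14.4-fold), and another ligand of that receptor, Hbegf, by 1.49 ± 0.060 on the log2 scale. Vegfa, the main angiogenic factor, rose from 19.9, 19.7 and 19.6 CPM to 132, 127 and 129.5 CPM (6.57-fold). Adm2 rose from 0.706 ± 0.358 to 34.7 ± 0.851 CPM, Stc2, a stanniocalcin, by 2.17 ± 0.15 and the chemokine Cxcl1 by 1.65 ± 0.12. Cxcl5 fell by 0.56 and Ccl2 was not past the threshold (0.11 ± 0.074).

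Of 10 growth arrest genes tested 6 rose, the most Gadd45a (chr6:67035096-67037457), which responds to DNA damage and to ATF4. It measured 4.29, 6.47 and 5.80 CPM in control and 252, 249 and 231 CPM in deprived cultures, 44.6-fold apart (log2 5.48 ± 0.098). The CDK inhibitor p21 (Cdkn1a) rose from 78.8, 79.6 and 78.3 CPM to 184, 183 and 187 CPM (2.34-fold), and Cdkn2d, Cdkn2c and Cdkn1b rose by 0.45 ± 0.072, 0.36 ± 0.055 and 0.27 ± 0.043 on the log2 scale. Cdkn2a and Cdkn2b had no count in any of the 6 Myc310 libraries. None of the 10 was lower, and Gadd45b, a relative of Gadd45a (-0.074 ± 0.095), and Cdkn1c, with at most 3 counts, were not past the threshold (list median 0.31, fitted and with bounds). Targets of p53 showed no common direction, with 7 higher, 8 lower and 3 not past the threshold of 18 (median -0.05). Plk3 (3.36 ± 0.047), Bbc3 (PUMA, 1.5 ± 0.091), Rrm2b (1.52 ± 0.061) and Plk2 (1.30 ± 0.055) rose, while Trp53 itself (-0.35 ± 0.026), Bax (-0.29 ± 0.036), Ccng1 (-0.60 ± 0.031) and Ei24 (-0.82 ± 0.035) fell. Among the other cell death genes 5 were higher and 6 lower of 13 (median 0.01). Anti-apoptotic Bcl2l1 and Mcl1 rose by 0.47 ± 0.033 and 0.39 ± 0.022, and the pro-apoptotic Bok fell by 1.47.

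Of 24 immediate early factors tested 16 were higher, 12 over 2-fold, 1 was lower and 7 were not past the threshold (66.7% higher, median 1.00). Jun, the main AP-1 subunit, rose from 44.5 ± 2.76 to 212 ± 7.33 CPM (log2 2.25 ± 0.044), with Junb (1.4 ± 0.057), Fosl2 (1.17 ± 0.049), Fosl1 (1.11 ± 0.037) and Jund (1.04 ± 0.057) also past the threshold; Fos was not (0.84 ± 0.41). Klf6 (2.59 ± 0.033), Klf4 (2.18 ± 0.18), Egr2 (2.02 ± 0.41) and Egr1 (1.59 ± 0.29) rose, and Srf, the serum response factor, fell by 0.86. Feedback inhibitors of MAP kinases were higher in 10 and lower in 4 of 15 (median 0.51). Those that act chiefly on JNK and p38, Dusp8 (3.43 ± 0.088), Dusp16 (1.98 ± 0.043), Dusp1 (1.82 ± 0.041) and Dusp10 (1.76 ± 0.14), had the largest rises, the ERK phosphatase Dusp6 rose by 0.28 ± 0.033, and Spry1 fell by 1.61.

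**Figure D3:**
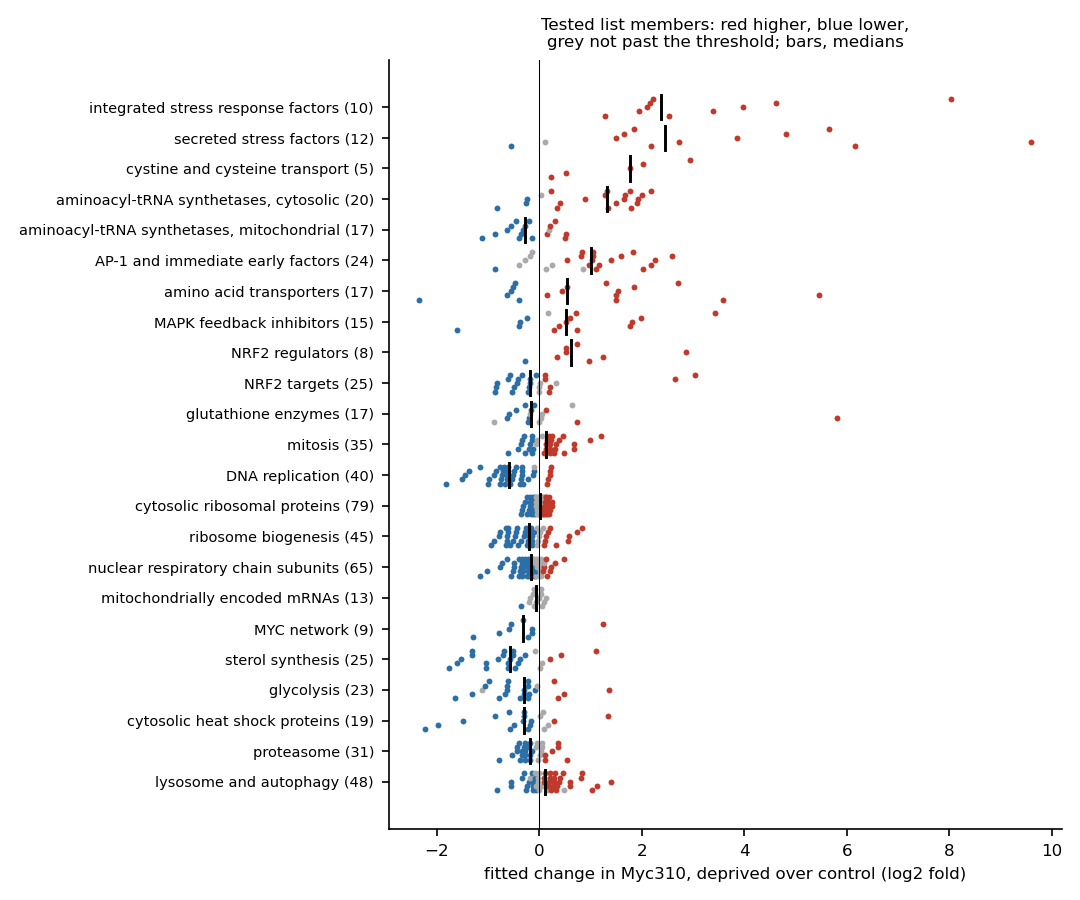
Fitted log2 change of every tested member of 23 gene lists in Myc310, with the number of members in parentheses, red for higher and blue for lower past the threshold, grey for not past it, and black bars at the list medians. Integrated stress response factors and cystine transport lie wholly to the right of 0, DNA replication and sterol synthesis mostly to the left, and ribosomal proteins close to 0.

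Myc, the oncogene of this tumour model, and most of its network fell by small amounts. Myc measured 1341, 1316 and 1314 CPM in control and 1070, 1090 and 1022 CPM in deprived cultures, lower without overlap but only 1.25-fold (log2 -0.32 ± 0.034); counts on this gene could come from the endogenous gene or the transgene, which were not separated here. Of 9 genes of the MYC network 8 were lower (median -0.32) and only the antagonist Mxd1 rose (3.29 ± 0.640 to 7.73 ± 0.895 CPM, log2 1.23 ± 0.13). Cytosolic ribosomal protein genes barely changed: of 79 tested 25 were higher and 22 lower, none by 2-fold, all between -0.35 and 0.25 (median 0.00), and many of them have near-identical processed pseudogenes with which reads may have been shared. Ribosome biogenesis genes, which MYC controls, were lower in 29 and higher in 10 of 45 (64.4% lower, median -0.21), led by Rrp1b (-0.95 ± 0.034), Nolc1 (-0.89 ± 0.021) and the polymerase I subunit Polr1b (-0.79 ± 0.032), with Nop14 (0.83 ± 0.034) and Taf1b (0.74 ± 0.075) higher.

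Mitochondrial genes encoded in the nucleus fell more often than they rose, by small amounts. Of 65 nuclear subunits of respiratory complexes I to V 43 were lower and 8 higher (66.2% lower, median -0.16), with Sdhd (-1.16 ± 0.028) and Uqcrh (-1.03 ± 0.040) over 2-fold lower. Mitochondrial ribosomal proteins were lower in 41 and higher in 19 of 77 (median -0.15), with Mrpl34 (-1.31 ± 0.074) and Mrpl18 (-1.29 ± 0.049) at the low end. Of the 13 mitochondrially encoded mRNAs 1 was past the threshold, mt-Nd1 (-0.35 ± 0.088), and their median was -0.07, with SE values from 0.080 (mt-Atp8) to 0.16 (mt-Nd6).

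Cell cycle genes parted between S phase and mitosis. Of 40 genes of DNA replication 34 were lower and 5 higher (85% lower against 33.9% of all genes, median -0.59). Cyclin E1 (Ccne1), which starts S phase with CDK2, measured 58.7, 60.8 and 60.03 CPM in control and 17.4, 17.1 and 16.5 CPM in deprived cultures, 3.53-fold lower. Ccne2 (-1.51 ± 0.056), the origin licensing genes Orc1 (-1.46 ± 0.073) and Cdc6 (-1.37 ± 0.048), Gins1 (-1.17 ± 0.090) and E2f1 (-1.0 ± 0.057) followed, and all 6 subunits of the MCM helicase fell, by 0.33 (Mcm3) to 0.85 (Mcm6) on the log2 scale. Skp2, the F-box protein that marks the CDK inhibitor p27 for degradation, fell from 72.6, 74.7 and 76.4 CPM to 16, 18.6 and 16.7 CPM (4.36-fold). Mitotic genes were instead higher in 20 and lower in 12 of 35 (57.1% higher, median 0.14), with 1 change over 2-fold. Ndc80, a kinetochore subunit, rose from 45.6, 46.8 and 46.1 CPM to 109.8, 106 and 102 CPM (2.30-fold), Prc1 by 0.98 ± 0.027 and Aurka by 0.67 ± 0.032, whereas the checkpoint kinase Bub1b fell by 0.60, Cenpa by 0.42 and Plk1 by 0.36.

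Genes of lipid synthesis mostly fell. Of 25 genes of sterol synthesis and its SREBP2 control 19 were lower, 7 over 2-fold, and 3 higher (76% lower, median -0.57). Insig1, which retains SREBP in the endoplasmic reticulum and is itself an SREBP target, fell from 27.4, 34.4 and 33.0 CPM to 10.4, 9.99 and 10.4 CPM (3.07-fold). Hmgcs1 (-1.05 ± 0.061), which makes HMG-CoA for the pathway, also fell. The exceptions were 3 oxygen-dependent enzymes of the later pathway, Msmo1 (29.3 ± 0.0711 to 63.1 ± 2.74 CPM, log2 1.11 ± 0.071), Sqle (0.42 ± 0.044) and Cyp51 (0.20 ± 0.070). Without deprived culture 1 Cyp51 was not past the threshold (0.13, edgeR's adjusted p = 0.137). The same held without the cultures numbered 1 in all lines (0.13, adjusted p = 0.115) or those numbered 2 (0.22, adjusted p = 0.0547). Fatty acid synthesis genes were lower in 10 of 14 and higher in 1 (median -0.36), with Elovl6 (-1.52 ± 0.054), Fasn (-1.09 ± 0.036) and Acly (-0.72 ± 0.025) among those that fell and Fads1 (0.26 ± 0.041) higher. Of 6 lipoprotein receptors 4 were lower and 2 higher (median -0.24). Vldlr, an ATF4 target in stressed liver, rose from 13.5, 14.1 and 14.4 CPM to 93.6, 89.5 and 93.2 CPM (6.59-fold), and Lrp8 fell by 1.65 on the log2 scale.

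Heat shock genes, listed apart from those of the endoplasmic reticulum, fell in 13 of 19 and rose in 2 (68.4% lower, median -0.31). Hspa8, the constitutive HSC70, measured 2796, 2752 and 2750 CPM in control and 972, 970.2 and 1001 CPM in deprived cultures, 2.82-fold lower without overlap. The inducible Hspa1a (16.6 ± 0.674 to 3.55 ± 0.522 CPM) and Hspa1b (39.1 ± 2.00 to 9.85 ± 0.309 CPM) fell by 2.23 and 1.99 on the log2 scale, though these are near-identical copies between which reads may be divided. Their co-chaperone Dnaja1 fell by 0.87 and the mitochondrial Hspd1 by 0.60, and Dnajb4 rose by 1.33 ± 0.047. In the endoplasmic reticulum 11 of 16 chaperone genes were lower and 3 higher, among them Hspa5 (BiP, 1.14 ± 0.021) and Herpud1 (2.74 ± 0.040), and of 10 sensors and effectors 6 were higher, with Ero1a (1.91 ± 0.026), Atf6 (1.43 ± 0.028) and Xbp1 (1.04 ± 0.047) over 2-fold. Over the 26 genes the median was -0.06.

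Lysosome and autophagy genes were higher in 24 and lower in 14 of 48 (50% higher, median 0.10), with the factor Mitf (1.39 ± 0.046), Wipi2 (1.12 ± 0.032) and Atg12 (1.03 ± 0.047) over 2-fold higher and the autophagy kinase gene Ulk1 (-0.55 ± 0.071) lower. Proteasome subunits were lower in 18 and higher in 6 of 31 (58.1% lower, median -0.18), and none of the 14 core particle genes was higher. Psmd1, a scaffold of the regulatory particle, fell by 0.79. Glycolysis genes were lower in 17 and higher in 4 of 23 (73.9% lower, median -0.31), including Ldha (-0.67 ± 0.020), Pgam1 (-0.98 ± 0.022) and the lactate exporter Slc16a3 (-1.31 ± 0.052), with Eno2 (1.36 ± 0.10), Slc2a1 (0.47 ± 0.030) and Hk2 (0.28 ± 0.031) higher.

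Metallothioneins, small proteins built largely on cysteine, rose, Mt1 from 185, 192 and 184 CPM to 452, 454 and 467 CPM and Mt2 from 415, 422 and 429 CPM to 1012, 1001 and 1042 CPM, with the zinc exporter Slc30a1 at 1.38 ± 0.076 and the zinc importer Slc39a10 at -2.56 ± 0.060 (6 genes, 3 higher, 1 lower, median 0.68). Polyamine and methionine salvage genes were lower in 9 and higher in 5 of 14 (median -0.36), Mtap falling by 1.04 and Apip rising by 1.16 ± 0.079. Interferon-stimulated genes were mostly low and mixed, 4 higher and 3 lower of 15 (median -0.01, also with bounds), and antigen presentation genes 2 higher and 4 lower of 9 (median -0.14). Extracellular matrix and adhesion genes were higher in 12 and lower in none of 22 (54.5% higher, median 0.15), among them the low-level fibronectin gene Fn1 (0.584 ± 0.0526 to 1.93 ± 0.275 CPM, log2 1.71 ± 0.28) and collagen receptor Itga2 (0.248 ± 0.0853 to 1.55 ± 0.119 CPM, log2 2.65 ± 0.35), the laminin chain Lamb3 (3.45 ± 0.176 to 11.2 ± 1.17 CPM, log2 1.70 ± 0.15), Lama5 (0.57 ± 0.056) and Itga6 (0.58 ± 0.028). Wnt and Notch genes were lower in 6 and higher in none of 9 (median -0.52), with Nrarp, a feedback inhibitor of Notch, at -1.14 ± 0.073.

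Targets of Hippo signalling were higher in 5 of 6 and TGF-beta and BMP targets in 4 of 10, with 5 of the 16 lower (median 0.57). The YAP targets Ankrd1 (2.57 ± 0.049), Ccn2 (1.89 ± 0.085) and Ccn1 (1.75 ± 0.066) rose on the log2 scale. Clock genes were higher in 8 and lower in 6 of 14 (median 0.17), with the repressor gene Ciart at 2.99 ± 0.12, Arntl at 1.32 ± 0.038, Nr1d1 at -1.80 ± 0.14 and Per3 at -1.42 ± 0.17, all past the threshold. Chromatin modifiers were higher in 10 and lower in 5 of 17 (median 0.18), with the demethylase Kdm6b (1.57 ± 0.046) and Tet2 (1.16 ± 0.065) higher and the DNA methyltransferases Dnmt3b (-1.06 ± 0.27) and Dnmt3a (-0.83 ± 0.052) lower. Of the epithelial keratins, Krt19 rose by 0.74 ± 0.055, Krt8 by 0.20 ± 0.021 and Krt18 by 0.16 ± 0.028 (7 epithelial markers tested, 3 higher, median 0.20 fitted and 0.16 with bounds). Among markers of other cell types, 1 of 2 leukocyte markers was higher (Cd68, 0.36 ± 0.099; list median 0.30), none of 3 fibroblast markers (median 0.05) passed the threshold, and 1 of 3 endothelial markers was lower (Esam, 12, 13 and 10 counts in control and 7, 1 and 0 in deprived cultures; list median 0.06). Without the cultures numbered 3 Cd68 stood at 0.30 (edgeR's adjusted p = 0.0581), and without deprived culture 2 or 3 Esam was not past it (adjusted p = 0.0739 and 0.0927). Their part in any other result was not tested.

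The 12 largest rises among genes past the threshold, without overlap between media and with a mean level of at least 3 (log2 CPM), were Atf3, Chac1, Gadd45a, Ddit3, Aldh1l2, Acot2, Otub2, Arid5a, Trib3, Ppp1r15a, Gpat3 and Areg, from 8.02 down to 3.85 on the log2 scale. Those not described above were also near-silent or low in control medium. Acot2, a mitochondrial acyl-CoA thioesterase, measured 3.16, 2.97 and 2.46 CPM in control and 52.2, 54.2 and 56.9 CPM in deprived cultures (18.9-fold). Otub2, a deubiquitinase, went from 2.26, 2.71 and 2.46 CPM to 44.5, 42.5 and 45.0 CPM (17.8-fold), and Arid5a, an RNA-binding protein that stabilises cytokine mRNAs, from 5.66, 6.12 and 4.50 CPM to 94.6, 96.0 and 99.5 CPM (17.7-fold). Gpat3, which starts triglyceride synthesis, rose from 14.4, 12.5 and 13.1 CPM to 192, 191 and 196 CPM (14.4-fold). In none of these did a deprived culture come near the highest control.

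The 12 largest falls by the same rule were smaller, from -3.21 to -1.86 on the log2 scale. Ccnb1ip1 fell from 36.1, 30.1 and 29.9 CPM to 3.81, 3.34 and 3.21 CPM, but an exon of it overlaps Rpph1, the RNA of ribonuclease P, on the same strand, so its reads cannot be assigned with certainty. Apln, which encodes the peptide hormone apelin, fell from 23.4, 22.5 and 22.2 CPM to 2.44, 3.39 and 2.86 CPM (7.84-fold). Ung, the uracil-DNA glycosylase of base excision repair, fell from 33.9, 34.3 and 31.9 CPM to 5.45, 5.91 and 5.29 CPM (6.02-fold), and Dna2, a nuclease and helicase of replication, fell from 44.3 ± 1.62 to 12.2 ± 0.250 CPM. Both belong to DNA metabolism, as do many of the replication genes above. Slc39a10, the zinc importer ZIP10, fell from 70.0, 70.7 and 65.1 CPM to 11.4, 12.7 and 10.8 CPM (5.90-fold), and the organic anion carrier Slco4a1 from 43.0 ± 1.10 to 8.56 ± 1.06 CPM. Ifi30, a thiol reductase that opens disulphide bonds in lysosomes, fell from 39.6, 36.6 and 34.0 CPM to 8.997, 10.99 and 9.71 CPM (3.72-fold). Kif26a (-2.26 ± 0.095), an atypical kinesin, Pgm2l1 (-1.89 ± 0.092), which makes glucose 1,6-bisphosphate, and the chondroitin sulfotransferase Chst12 (-1.89 ± 0.085) completed the group with Skp2 and Hspa1b.

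Genes at the floor in one medium were treated apart, because a fold against almost no counts has no fixed size. There were 15 genes with at most 3 counts in each control library and clear counts in all deprived libraries, and 1 in the reverse direction. Atp2a3, the calcium pump SERCA3, had 2, 2 and 3 counts in control and 296, 273 and 288 in deprived cultures. Car6, a secreted carbonic anhydrase, had 1, 0 and 1 against 136, 100 and 144 counts, and Ccn4, a matricellular protein, 2, 0 and 2 against 81, 71 and 69. Cspg5 went from 1, 1 and 2 to 83, 59 and 73 counts and the neuronal tubulin gene Tubb3 from 2, 2 and 1 to 51, 47 and 50. In each the deprived libraries lay far above the controls, yet the level reached stayed low. The one gene in the reverse direction, Exosc6 (chr8:111056339-111057664), an exosome subunit, had 866, 747 and 700 counts in control and none in any deprived culture, at least 255-fold lower. It lies wholly within Aars (chr8:111033144-111057664) on the same strand, Aars rose 4.03-fold, and Exosc6 had no count in any deprived library of the other 3 lines either; the part that the assignment of shared reads played was not tested.

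The response of Myc310 was then set against that of the other 3 lines by testing the difference of the responses (interaction contrasts in the same edgeR model, adjusted p under 0.05); the 3 tests share the Myc310 cultures. It differed from that of MYAZ16.1e in 5396 genes (40.3%), 2656 with the change in Myc310 above and 2740 below. Against LM1 the number was 3278 (24.5%; 1335 above and 1943 below) and against LM1-LM 4455 (33.2%; 1902 above and 2553 below). These splits moved with the scaling of the libraries: the share above was 49.2%, 40.7% and 42.7% with TMM factors, 42%, 57.3% and 56.8% with upper-quartile factors and 37.9%, 70.3% and 69.2% with library totals alone, so no direction is read from them. Without the cultures numbered 1, 2 or 3 the count against LM1 was 2438, 2035 or 2168. The number of changes over 2-fold past the threshold was 928 higher and 729 lower in Myc310, 507 and 110 in MYAZ16.1e, 1214 and 1234 in LM1, and 1308 and 1382 in LM1-LM, so that Myc310 stood between MYAZ16.1e and its own lung-derived lines by this count.

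The median of the integrated stress response factors followed that order. Against a median of 2.37 in Myc310, they changed by 1.71 in MYAZ16.1e at the median, by 2.90 in LM1 and by 2.98 in LM1-LM. Of the 10 factors, 7 changed more in Myc310 than in MYAZ16.1e, and 7 and 8 changed less than in LM1 and LM1-LM (against 40.3%, 24.5% and 33.2% of all genes called in either direction). Atf4 had a response in Myc310 that was 0.50 ± 0.039 above that in MYAZ16.1e and, on the same log2 scale, differed by -0.36 ± 0.039 from LM1 and -0.45 ± 0.039 from LM1-LM. Jdp2 did not follow it, with a response above that in each other line, by 0.45 ± 0.056, 0.31 ± 0.055 and 0.32 ± 0.055 for MYAZ16.1e, LM1 and LM1-LM. For Atf3 the difference from MYAZ16.1e was 3.65 ± 0.26 (edgeR's adjusted p = 2.7e-13), while that from LM1 did not pass the threshold (-0.95 ± 0.37, adjusted p = 0.0609; without the cultures numbered 2, -1.63, adjusted p = 0.0182). Cytosolic aminoacyl-tRNA synthetases showed the same arrangement, with medians of 1.11, 1.32, 1.52 and 1.53 for MYAZ16.1e, then Myc310, LM1 and LM1-LM. Here 14 of 20 changed more than in MYAZ16.1e and 13 and 12 less than in LM1 and LM1-LM; with libraries scaled to their totals alone the last of these counts was 5 less and 4 more, and the counts against LM1 were 9 less and 3 more. The regulators of NRF2, with a median of 0.62 in Myc310, had 0.35 in the MYAZ16.1e line, 0.93 in LM1 and 0.94 in LM1-LM.

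Mitotic genes differed in direction between the lines. In MYAZ16.1e 31 of 35 were lower (median -0.32), in Myc310 20 were higher and 12 lower, and in LM1 and LM1-LM 24 and 27 were higher (medians 0.29 and 0.45). The change in Myc310 was above that in MYAZ16.1e for 29 of the 35 and below that in LM1 and LM1-LM for 28 and 32 (29, 20 and 28 with library totals alone; over all genes 40.3%, 24.5% and 33.2% were called in either direction). Replication genes fell in all 4 lines (34 of 40 in Myc310, 38 in MYAZ16.1e, 33 in LM1 and 35 in LM1-LM). Myc itself changed by -0.32 in Myc310 against 0.057 in MYAZ16.1e, not past the threshold there, -0.88 in LM1 and -1.26 in LM1-LM, and the response in Myc310 differed from each of these. Of 19 heat shock genes the change in Myc310 was below that in LM1 for 11 and above it for 2, and against LM1-LM for 12 and 2 (7 and 3, and 9 and 3, with library totals alone). Against MYAZ16.1e it was below for 7 and above for 5, with medians of -0.31 in Myc310 and -0.27 in MYAZ16.1e; with library totals alone these counts were 11 and 5, and with upper-quartile factors 9 and 5.

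**Figure D4:**
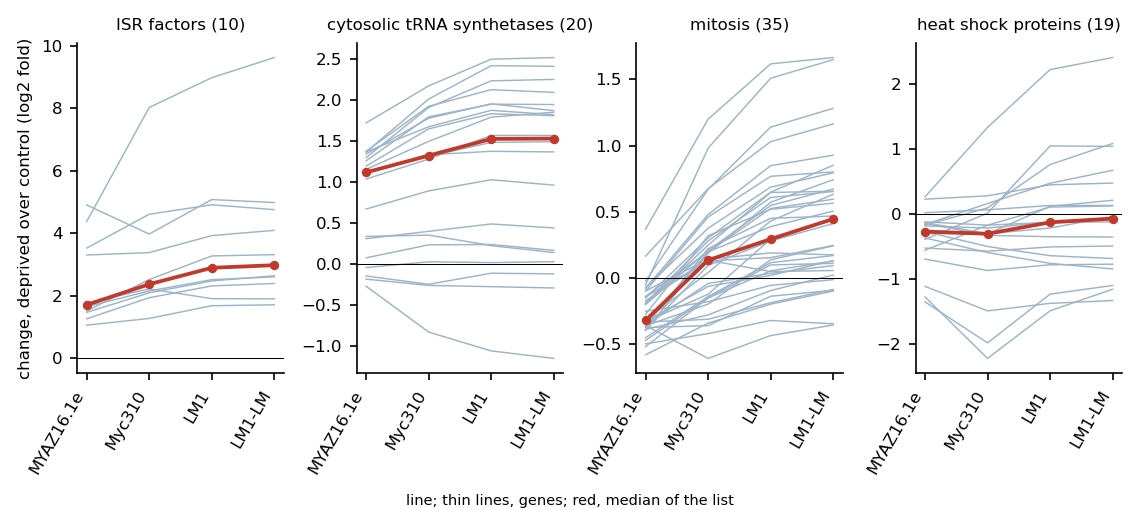
Fitted log2 change (deprived over control) of the members of 4 gene lists in 4 lines; each thin line joins the values of one gene and red points are list medians. ISR stands for integrated stress response. Medians of the first 3 lists lie higher in Myc310 than in MYAZ16.1e and lower than in LM1 and LM1-LM, and the median of heat shock proteins in Myc310 lies lowest.

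In 197 genes (1.47%) the response of Myc310 differed from that of each of the other 3 lines in one direction, above each in 62 and below each in 135 (116 and 76 with library totals alone, 80 and 100 with upper-quartile factors). Without the cultures numbered 1, 2 or 3 the count was 124, 85 or 145. Of those above, 44 rose in Myc310, 9 fell less than elsewhere and 9 were not past the threshold there. Of those below, 94 fell in Myc310, 26 rose less and 15 were not past it. Of the genes with the largest smallest difference from the other lines, 7 above and 8 below are given here. Ddr2, a receptor tyrosine kinase for collagen, rose from 64.2, 64.1 and 66.2 CPM to 249, 245 and 250.4 CPM in Myc310, 0.82 ± 0.033, 0.54 ± 0.032 and 0.59 ± 0.032 (log2) above MYAZ16.1e, LM1 and LM1-LM. The sterol enzyme gene Hsd17b7 fell in Myc310 by only 0.52 on the log2 scale, which was 0.86 ± 0.099, 0.86 ± 0.099 and 0.77 ± 0.096 above the other lines in the same order. The small GTPase gene Arl4a rose by 1.21 ± 0.069, which was 0.96 ± 0.095, 0.62 ± 0.098 and 0.80 ± 0.098 above them. Rassf4, Slpi (a secreted protease inhibitor) and the non-coding Snhg5 rose by 0.41 ± 0.053, 0.31 ± 0.044 and 0.64 ± 0.043, each above the other lines, and Snn changed by 0.24 ± 0.13, not past the threshold (0.35 without the cultures numbered 3, edgeR's adjusted p = 0.0336), while it fell in each other line.

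Trib3, Slc7a11 and Cdkn1a stood below each other line. Trib3 rose by 3.98 in Myc310 against 4.91 in MYAZ16.1e, 5.08 in LM1 and 4.98 in LM1-LM, with differences of -0.93 ± 0.082, -1.10 ± 0.088 and -1.01 ± 0.084. Slc7a11 rose by 2.94 against 3.42, 3.98 and 3.93, with differences of -0.48 ± 0.072, -1.03 ± 0.080 and -0.99 ± 0.079. Cdkn1a had differences of -0.47 ± 0.049, -0.42 ± 0.042 and -0.42 ± 0.042. These 3 genes rose in every line and rose least in Myc310. Trp53inp1, a p53 target, was not past the threshold in Myc310 (49.4, 55.6 and 52.7 CPM against 54.7, 54.8 and 53.1 CPM, overlapping) and rose in each other line, by 0.49 in LM1 to 1.19 in MYAZ16.1e. Hspa1a and Hspa1b fell further in Myc310, Hspa1a by differences of -0.95 ± 0.16, -0.73 ± 0.16 and -1.07 ± 0.16. Vcan, the matrix proteoglycan versican, fell from 9.68, 10.1 and 10.6 CPM to 7.14, 7.06 and 6.89 CPM in Myc310 and did not fall in the others. Without the cultures numbered 1 the difference of Vcan from LM1-LM was -0.61 (edgeR's adjusted p = 0.247), and without those numbered 3 that of Hspa1a from LM1 was -0.56 (adjusted p = 0.0612). Dock11 rests on few reads (1.21, 0.219 and 0.464 CPM in control and 0.355, 0.183 and 0.433 CPM in deprived cultures, overlapping), and without control culture 1 its change was -0.051 (edgeR's adjusted p = 0.94).

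**Figure D5:**
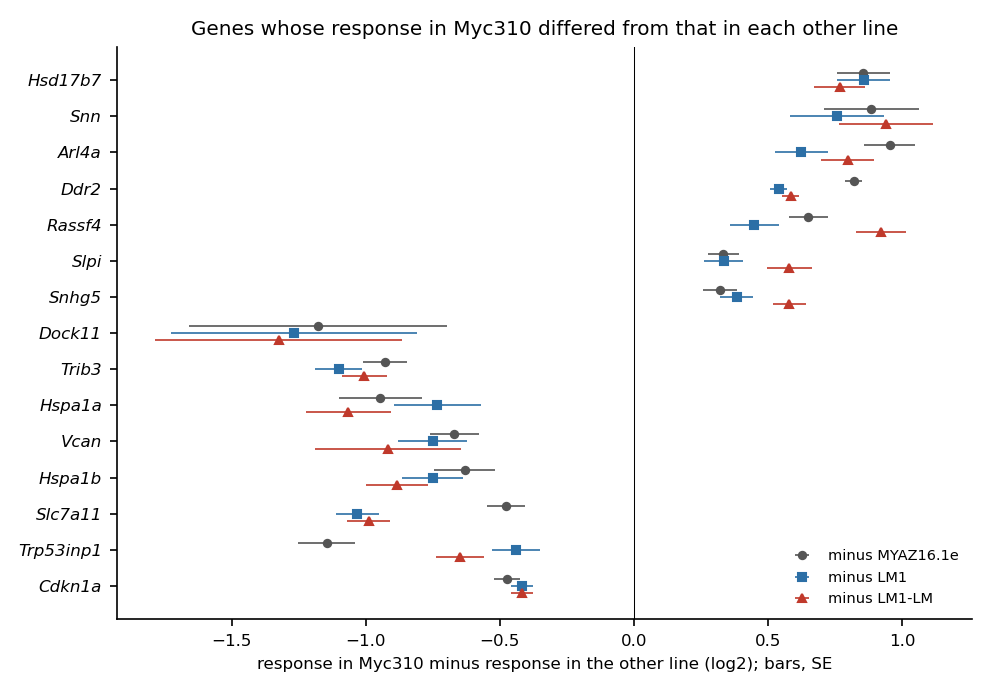
Response in Myc310 minus the response in MYAZ16.1e (circles), LM1 (squares) and LM1-LM (triangles) for 15 genes that differed from all 3, log2 scale, with bars of 1 SE. The upper 7 genes lie to the right of 0 and the lower 8 to the left for all 3 lines, and Dock11 has the widest bars.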

How the data were processed

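PolyA RNA of 3 control and 3 deprived cultures of each of the 4 lines compared was made into directional libraries and sequenced in pairs on a NovaSeq instrument. The deposited values were raw read counts per gene, which the authors obtained with the nf-core RNAseq pipeline (STAR and RSEM, build GRCm38), with R 4.2.2 and DESeq2 1.38.3 named in the labels' processing notes. The strand setting of the counting is not given in the sources used here. RSEM divides reads shared by overlapping or near-identical genes by estimation, so values of such genes are less certain than their spread shows.

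Counts were analysed in edgeR 4.0.16 (R 4.3.3). Genes passing filterByExpr were scaled with TMM factors, and a quasi-likelihood model was fitted to 24 libraries in 8 groups (4 lines, control and deprived), which share one estimate of the spread, with the contrast of Myc310 deprived against control and its difference from the same contrast in each other line. P-values were adjusted by Benjamini-Hochberg over all genes tested, and 0.05 was the threshold, two-sided. SE values are Wald errors from the model weights and the moderated dispersion. CPM values printed for single cultures carry counting error from libraries of at least 21072792 reads, and 3 counts per library was taken as the floor. The scripts were tested on simulated counts. Gene lists and members were chosen with earlier results of these data known, and no list was tested as a set. Named genes were list members, the 12 largest rises and 12 largest falls without overlap at a mean level of at least 3 (log2 CPM), genes at the floor in one medium, and the 8 genes furthest above and below each other line; some of the genes so chosen are not reported here. Gene positions and overlaps came from GENCODE mouse release M21 and promoter windows from RefSeq (GRCm38.p6). Replicate numbers did not pair control with deprived cultures of Myc310 (correlations of the deviations -0.002, 0.014 and -0.057 over 13400 genes). Alternatives were 3 other scalings, 2 other filters, a replicate block, DESeq2 1.42.0, a test against a 1.5-fold change, a fit to the 6 Myc310 libraries alone and leaving out cultures in turn.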

Additional observations from a re-analysis of the deposited data

Results flagged for a closer look

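Differences between the lines in the response to deprivation were flagged because the difference itself was tested. Myc310 and MYAZ16.1e differed in the response of 5396 genes, Myc310 and LM1 in that of 3278, Myc310 and LM1-LM in that of 4455, and Myc310 stood on one side of all 3 in 197 (edgeR, adjusted p under 0.05). For the genes named for this, the difference from the nearest of the 3 other lines (log2) was 0.767 for Hsd17b7, 0.758 for Snn, 0.624 for Arl4a, 0.54 for Ddr2, 0.449 for Rassf4, 0.334 for Slpi and 0.321 for Snhg5. On the lower side it was -1.179 for Dock11, -0.929 for Trib3, -0.733 for Hspa1a, -0.67 for Vcan, -0.631 for Hspa1b, -0.477 for Slc7a11, -0.44 for Trp53inp1 and -0.417 for Cdkn1a. The value for Dock11 rests on control culture 1.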

How the results depend on the processing

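The count of genes past the threshold in Myc310 (8946) and of those over 2-fold (1657) stayed within 1.5 times under the other scalings, without a filter, with DESeq2 and in the 6 Myc310 libraries alone. Requiring 10 counts in every library left 973 genes over 2-fold, since genes silent in a line are then not tested, and a test against a 1.5-fold change passed 2303 genes. Without the cultures numbered 1, 2 or 3 in all lines the counts ranged from 8070 to 8263 and from 1559 to 1596, and differences from LM1 from 2035 to 2438 and from each other line from 85 to 145; fewer libraries entered these fits. Without 1 Myc310 culture they ranged from 8586 to 8624 and from 1639 to 1681. The replicate block, whose numbers did not pair cultures, gave 8829, 1634, 5136, 3008, 4197 and 164 for the 6 counts in the order given above and in the report. Among genes past the threshold in the main fit or the alternative, Lars2 alone changed sign. It stood at -0.91 to 0.004 when the cultures of one number were left out, the latter without those numbered 2. Of 288 genes named with values 205 kept their call throughout, and their direction where past the threshold. A change of sign between fits in neither of which the gene passed was not counted. Of 5143 values 103 lost the call, most of them against a 1.5-fold change, and 3 gained it, 1 of Snn and 2 of mt-Atp8. None of the 36 list medians beyond 0.1 in size changed sign, but 157 of 799 values of the 47 medians moved by more than the SD over cultures, by up to 1.03 (endothelial markers, 6 Myc310 libraries alone). Depth limited genes near the floor of 3 counts per library, whose fold changes have no fixed size.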
